A study of Mus musculus with 12 samples.

Results

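The alpha-arrestins examined here are Arrdc1, Arrdc2, Arrdc3, Arrdc4 and Txnip, 5 of the 19938 genes measured with a named probe set in cultured mouse microglia, the resident macrophages of the brain. Each was read from a probe set whose only annotated gene symbol was that gene, and each had 1 such probe set. The family was chosen because Arrdc3 had one of the lowest differences with oligomeric Aβ42, so the values of Aβ42 alone against vehicle are given as a description and carry no test for these 5 genes. For Arrdc3 itself the AE1-329 comparisons are also given without a test, since each is set against arrays on which that difference rests. Primary microglia came from C57BL/6J pups on postnatal day 7, were selected with CD11b magnetic beads, grown for 3 days and treated for 6 h. Cultures received oligomeric Aβ42 (10 µM) together with AE1-329 (100 nM), Aβ42 with the ethanol vehicle (0.001%), AE1-329 with the DMSO vehicle (0.4%), or the DMSO and ethanol vehicles. Aβ42 forms the amyloid plaques of Alzheimer's disease, and AE1-329 activates EP4, a receptor for prostaglandin E2. Each of the 4 treatments had 3 Affymetrix Mouse Gene 1.0 ST arrays, 1 per litter of pups, for 12 arrays in all. The model is a postnatal culture exposed once, and no adult or in vivo microglia were analysed here.

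Alpha-arrestins are adaptors with an arrestin fold whose C-terminal tails carry PPxY motifs that bind the WW domains of NEDD4-family ubiquitin ligases, and they direct ubiquitination and endocytosis of membrane proteins. Arrdc3 acts on beta-adrenergic receptors and integrin beta 4, Arrdc4 and Txnip on the glucose transporter GLUT1, and Arrdc1 recruits the ESCRT protein Tsg101 to bud microvesicles from the cell surface. Txnip also binds thioredoxin and has been linked to the NLRP3 inflammasome of macrophages. Txnip and Arrdc4 are known glucose-responsive targets of the transcription factor pair MondoA (Mlxip) and Mlx, and Txnip is a known FoxO target. EP4 couples to Gs and raises cAMP.

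The promoter windows of Txnip, Arrdc4 and Arrdc3 are shown because Txnip and Arrdc4, which share a known regulator, did not move together, while Arrdc3 and Arrdc4 were both higher with AE1-329. Sequences are RefSeq windows of build GRCm38.p6, from 250 bases before to 50 bases after an annotated start, on the strand of the gene. Capitals mark every match, on either strand, to CACGNG (an E-box-like hexamer), TGACG (the core of a cAMP response element) or GTAAACA (a FoxO site). Windows of all 5 members were found, 7 windows in all, because Arrdc3 has 3 annotated starts, the third of which overlaps the first and is not printed.
Txnip, chr3:96557707-96558006, plus strand: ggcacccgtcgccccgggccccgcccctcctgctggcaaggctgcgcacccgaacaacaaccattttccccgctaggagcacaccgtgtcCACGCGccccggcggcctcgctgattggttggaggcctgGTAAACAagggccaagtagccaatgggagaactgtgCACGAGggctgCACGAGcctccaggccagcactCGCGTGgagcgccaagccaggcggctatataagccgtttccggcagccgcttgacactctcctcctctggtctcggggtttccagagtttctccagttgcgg
Arrdc4, chr7:68749189-68749488, minus strand: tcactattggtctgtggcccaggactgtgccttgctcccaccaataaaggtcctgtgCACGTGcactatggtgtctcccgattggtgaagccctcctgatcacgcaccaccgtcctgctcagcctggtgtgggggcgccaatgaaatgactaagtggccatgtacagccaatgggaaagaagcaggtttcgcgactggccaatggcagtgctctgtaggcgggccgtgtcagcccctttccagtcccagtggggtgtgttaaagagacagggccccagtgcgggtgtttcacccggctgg
Arrdc3 start 1, chr13:80883134-80883433, plus strand: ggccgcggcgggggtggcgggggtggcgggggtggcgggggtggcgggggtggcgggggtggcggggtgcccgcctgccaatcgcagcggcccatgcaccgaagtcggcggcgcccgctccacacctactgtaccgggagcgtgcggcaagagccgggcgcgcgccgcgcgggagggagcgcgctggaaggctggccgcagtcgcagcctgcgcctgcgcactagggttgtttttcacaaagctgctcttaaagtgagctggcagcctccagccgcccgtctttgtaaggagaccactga
Arrdc3 start 2, chr13:80885845-80886144, plus strand: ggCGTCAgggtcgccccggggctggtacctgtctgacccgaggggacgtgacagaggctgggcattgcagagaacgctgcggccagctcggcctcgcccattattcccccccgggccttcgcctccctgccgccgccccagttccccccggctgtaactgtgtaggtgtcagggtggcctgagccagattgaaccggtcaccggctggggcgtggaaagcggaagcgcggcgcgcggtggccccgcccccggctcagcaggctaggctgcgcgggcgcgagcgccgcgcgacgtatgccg

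The Txnip window held a carbohydrate response element, that is 2 CACGNG hexamers 5 bases apart, from 85 to 69 bases before the start. Of 32851 mouse promoter windows of the same length, 16 (0.0487%) held that arrangement, and Txnip was the only member with it. Txnip also had a match to GTAAACA from 121 to 115 bases before the start, a motif found in 3.65% of all windows. The Arrdc4 window held the palindromic E-box CACGTG, present in 7.15% of windows, from 193 to 188 bases before its start. That E-box is itself a match to CACGNG, which 27.5% of windows contained, and CACGNG also matched at 1 place in Arrdc2 and at 2 places in Arrdc1. Arrdc3 had no match to CACGNG or GTAAACA in any of its 3 windows, and 1 match to TGACG (20.8% of all windows) at the second start. The full cAMP response element TGACGTCA (1.79% of windows), the NF-kB consensus (4.51%) and the glucocorticoid receptor hexamer TGTTCT (19.0%) had no match in any of the 7 windows. A match describes letters and not a bound site, and a missing match says only that the letters are not in these windows.

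**Figure D1:**
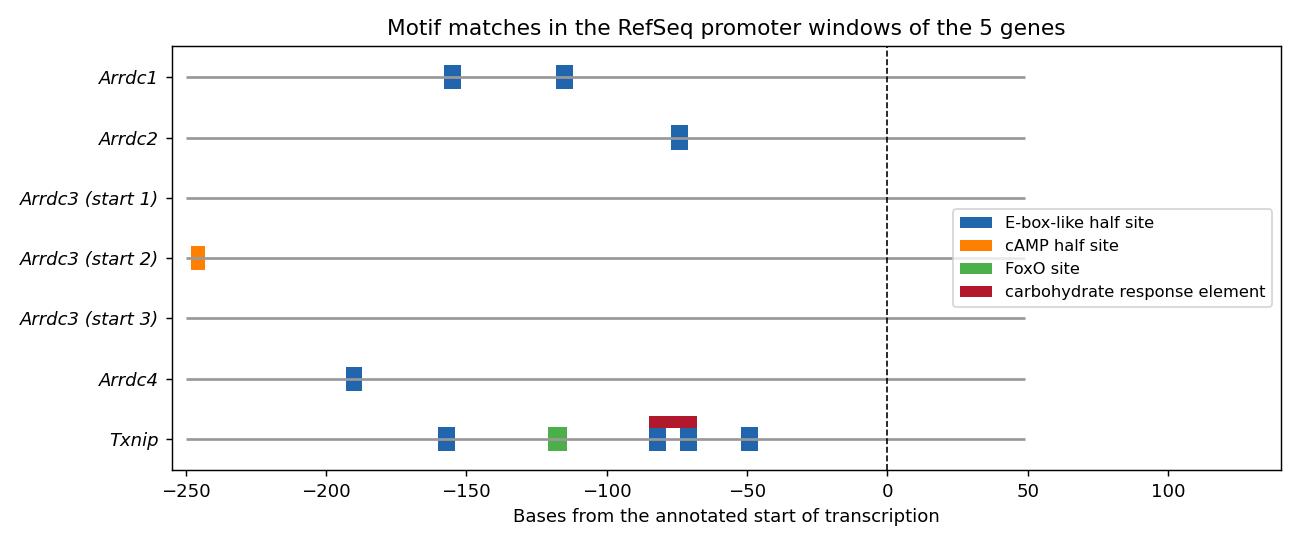
Motif matches in the promoter windows of the 5 genes, by distance in bases from the annotated start (dashed line); each horizontal line is 1 window. The carbohydrate response element (red, drawn above the hexamers that form it) appears in Txnip alone, and the windows of Arrdc3 starts 1 and 3 are empty.

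Expression was deposited on the log2 scale, where a difference of 1 is a 2-fold change. Array medians lay between 6.97 and 7.05. Levels of different genes are not compared with each other, because probe sets differ in how well they bind. Differences between group means are given ± the standard error of a limma fit to all 12 arrays, with p-values adjusted by the Benjamini-Hochberg method over all 19938 genes. Of 8 microglial markers listed 7 were measured, and all 7 lay above the median of every array, among them Csf1r, Cx3cr1, Itgam and Trem2. Of 22 markers of other cells 20 were measured and 7 lay above every array's median (Gfap, Aldh1l1, Mbp, Snap25, Col1a1, Col1a2 and Cd3e), and their signal over background is unknown.

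Arrdc3 spanned the widest range of the family. Its log2 levels in litters 1 to 3 were 8.0, 8.13 and 8.24 with Aβ42 and AE1-329. They were 7.02, 7.39 and 7.08 with Aβ42 alone. They were 10.41, 10.50 and 10.65 with AE1-329 alone, against 9.92, 9.80 and 10.03 in vehicle. The 4 groups did not overlap, and their order from high to low was AE1-329 alone, vehicle, the combined treatment and Aβ42 alone. With Aβ42 alone against vehicle the difference of Arrdc3 was -2.75 ± 0.10 (6.74-fold lower), the 4th lowest difference of all genes, which is the value that led to the choice of the family. The Aβ42-alone levels lay close to the array medians, and signal over background is unknown, which limits how exact that fold is.

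The comparison of the combined treatment with AE1-329 alone shares no array with Aβ42 alone or vehicle, although it comes from the same 3 litters and the family was proposed with results of all 12 arrays known. There Arrdc3 fell by 2.40 ± 0.10 with Aβ42 (5.26-fold lower, limma adjusted p = 1.81e-09), the 8th lowest difference of all genes. The litter differences were -2.40, -2.37 and -2.41. With Aβ42 alone against vehicle the litter differences were -2.90, -2.40 and -2.95.

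With AE1-329 Arrdc3 was higher. Without Aβ42 the difference from vehicle was 0.60 ± 0.10 (1.52-fold), with litter differences of 0.49, 0.71 and 0.62. On top of Aβ42 the difference from Aβ42 alone was 0.96 ± 0.10 (1.95-fold), with litter differences of 0.98, 0.74 and 1.17. These AE1-329 comparisons share no array with each other, but each shares 1 group with each Aβ42 comparison. The highest array of the combined treatment (8.24) still lay below the lowest vehicle array (9.80). The Aβ42 difference was 0.36 ± 0.15 log2 units smaller in size in AE1-329 cultures than without the agonist. These values are a description, since the low Aβ42-alone and high vehicle levels led to the choice of the gene.

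**Figure D2:**
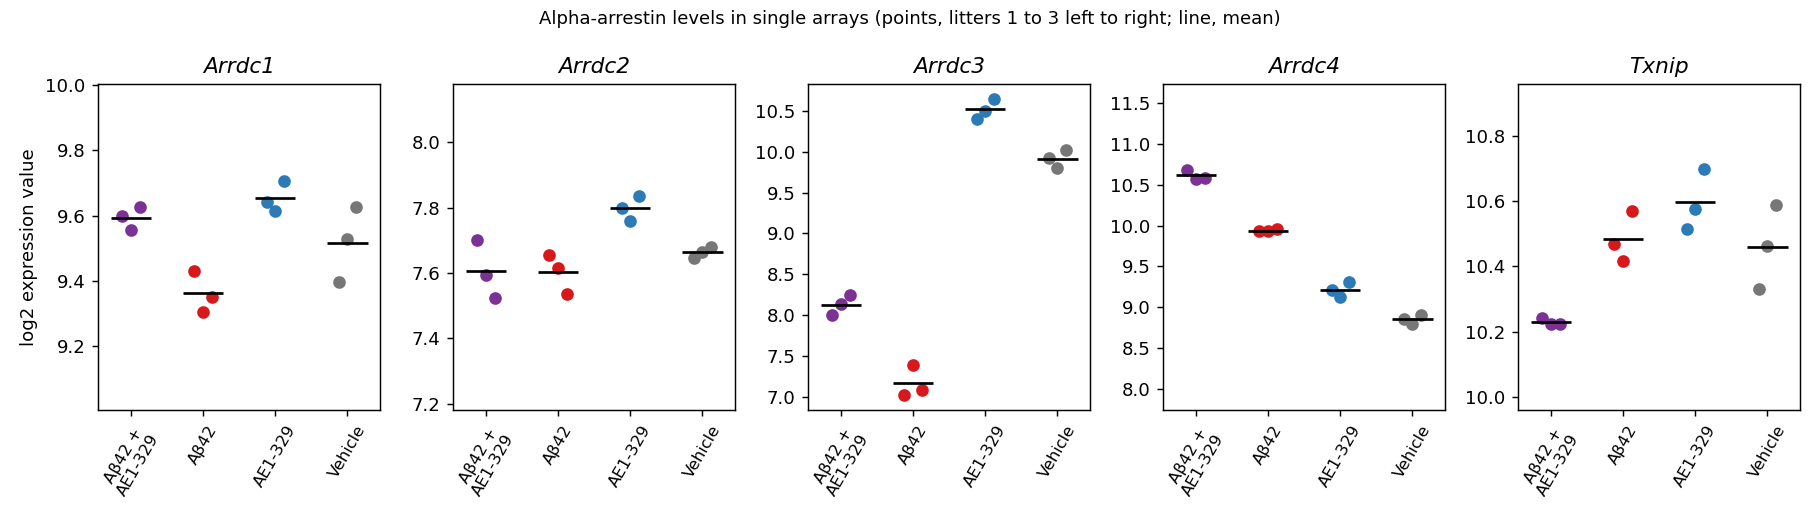
Log2 expression values of the 5 genes on each array (points, litters 1 to 3 from left to right within a group; line, group mean); panels have different vertical ranges, wider for Arrdc3 and Arrdc4. The 4 groups of Arrdc3 and of Arrdc4 are separate but in different orders, and the 3 combined-treatment arrays of Txnip (10.22 to 10.24) lie below all others of that gene.

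Arrdc4 went in the opposite direction to Arrdc3 with Aβ42 and in the same direction with AE1-329. Its log2 levels were 10.68, 10.57 and 10.58 with both agents. They were 9.93, 9.93 and 9.96 with Aβ42 alone. They were 9.21, 9.13 and 9.31 with AE1-329 alone, against 8.85, 8.79 and 8.91 in vehicle. No 2 groups overlapped, and the combined treatment was the highest and vehicle the lowest. With Aβ42 alone Arrdc4 was 1.09 ± 0.06 higher than in vehicle (2.13-fold), given as a description.

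In AE1-329 cultures Arrdc4 rose by 1.40 ± 0.06 with Aβ42 (2.64-fold, limma adjusted p = 1.33e-09), and the litter differences were 1.47, 1.44 and 1.28. AE1-329 raised it by 0.36 ± 0.06 over vehicle (1.29-fold, adjusted p = 0.00131). The agonist raised it by 0.67 ± 0.06 over Aβ42 alone (1.60-fold, adjusted p = 8.43e-06), with litter differences of 0.76, 0.64 and 0.62. Whether the agonist's effect was larger in the presence of Aβ42 did not pass limma's test (difference 0.31 ± 0.08, 95% interval 0.13 to 0.49, adjusted p = 0.0902), although the adjusted p was 0.0507 with litter as a block and 0.0446 among genes above the median level.

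Txnip, the thioredoxin-binding member, moved less. Its log2 levels were 10.24, 10.22 and 10.22 with both agents. They were 10.47, 10.42 and 10.57 with Aβ42 alone. They were 10.51, 10.58 and 10.70 with AE1-329 alone, against 10.33, 10.46 and 10.59 in vehicle. The combined treatment was below every other array, whereas the other 3 groups overlapped. Aβ42 alone differed from vehicle by 0.02 ± 0.07, with the litters at 0.14, -0.05 and -0.02.

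In AE1-329 cultures Txnip fell by 0.37 ± 0.07 with Aβ42 (1.29-fold lower, limma adjusted p = 0.00205), and the litter differences were -0.27, -0.35 and -0.47. AE1-329 alone gave 0.14 ± 0.07 over vehicle (95% interval -0.02 to 0.29, adjusted p = 0.326), which did not pass. On top of Aβ42 the agonist lowered Txnip by 0.26 ± 0.07 on the log2 scale (1.19-fold, adjusted p = 0.0382). That call was lost (adjusted p of 0.0522 to 0.160) when any 1 of the 6 arrays compared, or replicate 2 of AE1-329 alone, was left out, and when all 35556 probe sets were tested (0.0755). The interaction, the Aβ42 difference with the agonist minus that without it, was -0.39 ± 0.10 and did not pass (adjusted p = 0.0817). It passed with litter as a block (adjusted p = 0.0251), without vehicle replicate 3 (0.0327) and among genes above the median level (0.0471).

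Arrdc1, the microvesicle-forming member, had log2 levels of 9.60, 9.56 and 9.63 with both agents, 9.43, 9.30 and 9.35 with Aβ42 alone, 9.64, 9.62 and 9.70 with AE1-329 alone, and 9.40, 9.53 and 9.63 in vehicle. The Aβ42-alone arrays lay below all combined-treatment arrays and overlapped with vehicle, and the other 3 groups overlapped among themselves. AE1-329 on top of Aβ42 raised Arrdc1 by 0.23 ± 0.06 (limma adjusted p = 0.0333), a call that was lost (adjusted p of 0.0605 to 0.133) when any 1 of the 3 combined-treatment arrays, or replicate 2 or 3 of Aβ42 alone, was left out, and over all probe sets (0.0636). Neither Aβ42 in AE1-329 cultures (-0.06 ± 0.06, adjusted p = 0.605) nor AE1-329 alone (0.14 ± 0.06, adjusted p = 0.239) passed.

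Arrdc2, a further ubiquitin-ligase adaptor, had log2 levels of 7.70, 7.59 and 7.52 with both agents, 7.66, 7.61 and 7.54 with Aβ42 alone, 7.80, 7.76 and 7.84 with AE1-329 alone, and 7.65, 7.66 and 7.68 in vehicle. The 3 AE1-329 arrays were the highest and the other 3 groups overlapped. With Aβ42 in AE1-329 cultures Arrdc2 fell by 0.19 ± 0.06 (limma adjusted p = 0.0275), a call that was lost (adjusted p of 0.0717 to 0.126) when replicate 2 or 3 given both agents, or replicate 1 or 3 given AE1-329 alone, was left out and after quantile normalization again (0.0562). AE1-329 gave 0.14 ± 0.06 over vehicle (adjusted p = 0.187) and 0.00 ± 0.06 over Aβ42 alone (adjusted p = 0.985), and neither passed.

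**Figure D3:**
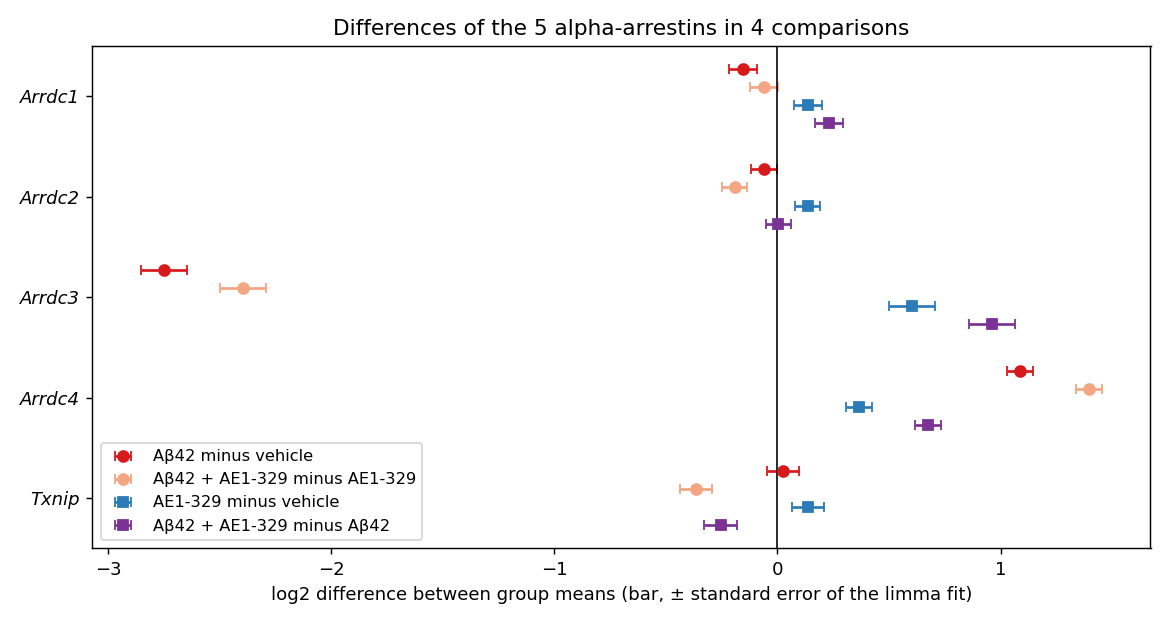
Log2 differences between group means of the 5 genes (points; bars, ± standard error of the limma fit to 12 arrays) for 2 comparisons of Aβ42 (circles) and 2 of AE1-329 (squares). Arrdc3 and Arrdc4 lie on opposite sides of 0 for Aβ42 (-2.75 and 1.09 without the agonist) and on the same side for AE1-329 (0.60 and 0.36 without Aβ42).

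Counted over the family, Aβ42 in AE1-329 cultures called 4 of 5 members, Arrdc4 higher and Arrdc2, Arrdc3 and Txnip lower, where 22.0% of all genes were called (9.77% higher and 12.2% lower). The median difference of the 5 members was -0.19, against 0.01 over all genes. Arrdc3 is among those called, and its fall with Aβ42 in the same litters led to the choice of the family. This count and median therefore include the gene behind that choice and are a description, not a test of the family. The count fell to 3 of 5, without Arrdc2, when replicate 1 or 3 of AE1-329 alone or replicate 2 or 3 of the combined treatment was left out. It was also 3 of 5 after quantile normalization again. For AE1-329 the counts leave out Arrdc3. AE1-329 alone called 1 of the other 4, Arrdc4, which was higher, where 10.2% of all genes were called (4.71% higher and 5.45% lower). AE1-329 on top of Aβ42 called 3 of those 4, Arrdc1 and Arrdc4 higher and Txnip lower, where 11.0% of all genes were called (5.99% higher and 5.04% lower). That count was 1 of 4, Arrdc4, when any 1 combined-treatment array or replicate 2 or 3 of Aβ42 alone was left out or all probe sets were tested, and 2 of 4 without replicate 1 of Aβ42 alone or replicate 2 of AE1-329 alone. For Aβ42 alone against vehicle no members are counted, and 25.6% of all genes were called (10.7% higher and 14.8% lower). Of the 4 members tested for the interaction 0 passed limma's test, where 1.95% of all genes passed (1.03% higher and 0.918% lower). At an unadjusted p under 0.05 there were 2 members, Arrdc4 and Txnip, and 10.4% of all genes. The number that passed the interaction was 1 of 4, Txnip, with litter as a block or without vehicle replicate 3. It was 2 of 4, Arrdc4 and Txnip, among genes above the median level.

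Some cell-type markers differed between the treatments. Of the 7 microglial markers, 1 rose and 3 fell with Aβ42 in AE1-329 cultures, where 9.77% of all genes rose and 12.2% fell. Of 20 markers of other cells 0 rose and 2 fell there by limma (Mbp and Pecam1). The mean log2 level of the 7 microglial markers was 10.16 to 10.22 per array with both agents, 10.36 to 10.43 with Aβ42 alone, 10.36 to 10.41 with AE1-329 alone and 10.58 to 10.60 in vehicle. With Aβ42 in AE1-329 cultures P2ry12 fell by 1.06 ± 0.11, Cx3cr1 by 0.43 ± 0.10 and Trem2 by 0.15 ± 0.05, while Aif1 rose by 0.28 ± 0.07. Csf1r (0.02 ± 0.05), Tmem119 (0.10 ± 0.09) and Itgam (-0.14 ± 0.05) did not pass there. Cx3cr1 fell by 0.82 ± 0.10, P2ry12 by 0.59 ± 0.11 and Aif1 by 0.31 ± 0.07 with AE1-329 alone. In that comparison Itgam rose by 0.18 ± 0.05, and Csf1r, Tmem119 and Trem2 did not pass. The mean of the 3 endothelial markers was 7.12 to 7.20 with both agents and 6.81 to 6.92 with Aβ42 alone, and it was 7.04 to 7.35 with AE1-329 alone, against 6.81 to 6.93 in vehicle. In that list only Pecam1, which macrophages also express, passed with AE1-329 (1.22 ± 0.08 over vehicle), while Cldn5 and Cdh5 did not. With AE1-329 alone 1 microglial marker rose and 3 fell, where 4.71% of all genes rose and 5.45% fell. Pecam1 was the only one of the 20 other markers to pass in that comparison. With AE1-329 on top of Aβ42 Pecam1 rose by 0.90 ± 0.08 and the astrocyte marker Slc1a3 fell by 0.42 ± 0.11. Of all genes 5.99% rose and 5.04% fell there. Of the microglial markers in that comparison Cx3cr1 fell by 0.95 ± 0.10, Aif1 fell by 0.49 ± 0.07 and Itgam rose by 0.22 ± 0.05. With Aβ42 alone against vehicle 2 of the 7 microglial markers rose and 4 fell, where 10.7% of all genes rose and 14.8% fell. Aif1 rose by 0.46 ± 0.07 and Tmem119 by 0.33 ± 0.09. P2ry12 fell by 1.43 ± 0.11, Cx3cr1 by 0.30 ± 0.10, Itgam by 0.18 ± 0.05 and Trem2 by 0.17 ± 0.05. Of the 20 other markers Slc1a3 rose by 0.52 ± 0.11 and Mbp fell by 0.27 ± 0.06. The part of these shifts in the alpha-arrestin differences was not tested, and in bulk RNA fewer cells of a type and less RNA per cell cannot be told apart.

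The genes whose pattern was most like that of Arrdc3 were picked by Pearson's r over the 12 arrays, among the 330 genes whose spread across arrays was within 0.5 to 2 times its own. They were the chemokine receptor gene Cxcr4 (r = 0.994), the lysophosphatidic acid receptor gene Lpar6 (0.993), the translation inhibitor gene Pdcd4 (0.991), the growth factor gene Hgf (0.990) and the phosphatidate phosphatase gene Lpin1 (0.989). All 5 were lower with Aβ42 in AE1-329 cultures, with differences between -1.57 (Pdcd4) and -2.59 (Hgf), and higher with AE1-329 on top of Aβ42, with differences between 0.50 (Lpin1) and 0.80 (Cxcr4). For Arrdc4, among 1408 genes of like spread, they were the Rac exchange factor gene Dock4 (0.995), the protein kinase A regulatory subunit gene Prkar2b (0.991), N4bp1 (0.991), the GATA-type repressor gene Trps1 (0.989) and Ncoa7 (0.989). Their differences with Aβ42 in AE1-329 cultures ran between 0.82 (Dock4) and 1.51 (Prkar2b). These correlations describe 12 arrays that fall into 4 groups and share 3 litters. The genes were picked on these same arrays, so the directions they share with Arrdc3 or Arrdc4 follow from the choice. Arrdc1, Arrdc2 and Txnip varied too little for such a ranking (standard deviation over the arrays 0.13, 0.10 and 0.16, below the limit of 0.3).

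**Figure D4:**
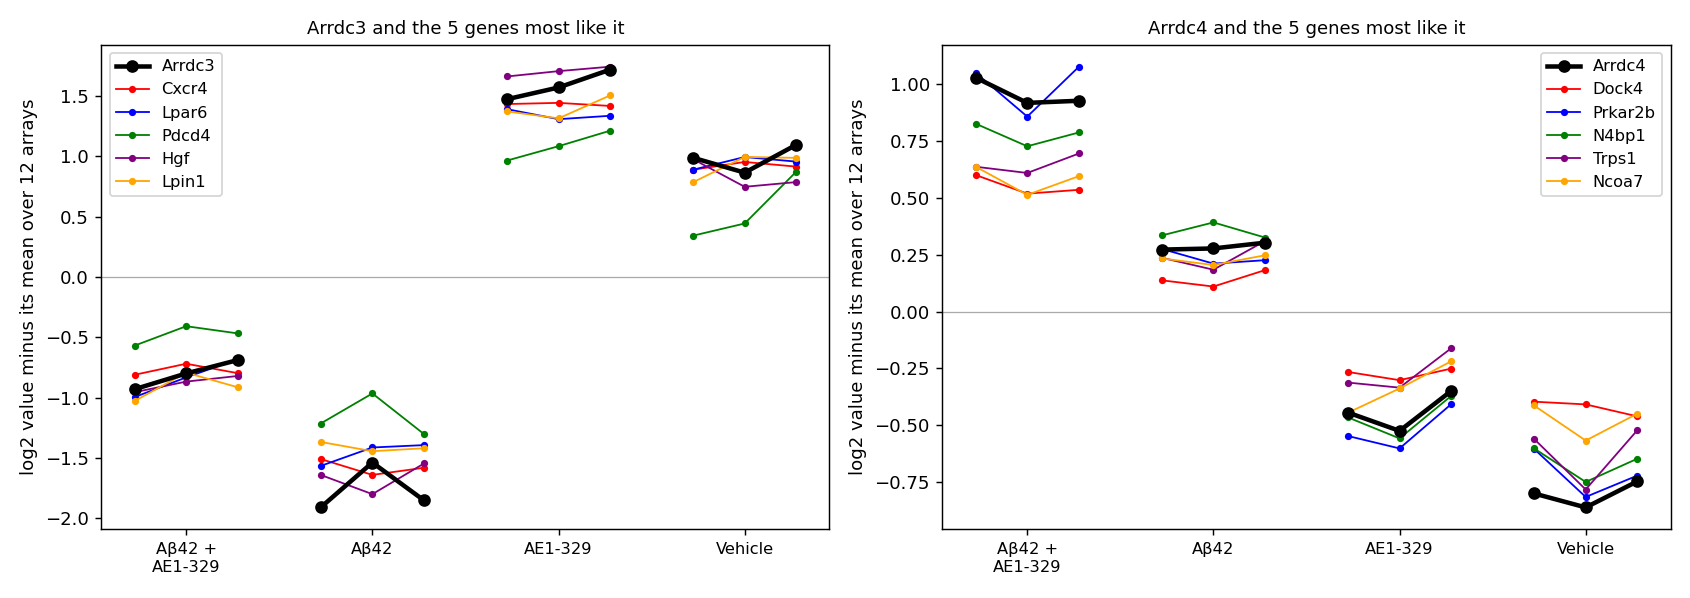
Log2 values minus their mean over the 12 arrays for Arrdc3 (left, black) and Arrdc4 (right, black) with the 5 genes most like each (colours); points are arrays, joined within a group for litters 1 to 3. The Arrdc3 set is high in AE1-329 and vehicle arrays, and the Arrdc4 set is highest with both agents.

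Of the NEDD4-family ligases and their adaptors, the enzymes that alpha-arrestins recruit, 3 of 11 fell, 1 rose and 7 did not pass with Aβ42 in AE1-329 cultures (median -0.09, against 0.01 over all genes), where 9.77% of all genes rose and 12.2% fell. Nedd4l fell by 1.07 ± 0.07 (limma adjusted p = 1.17e-07), Wwp1 fell by 0.78 ± 0.09, the adaptor Ndfip1 fell by 0.34 ± 0.05, and Smurf1 rose by 0.51 ± 0.06. With AE1-329 alone 2 of 11 rose and 1 fell, where 4.71% of all genes rose and 5.45% fell. Nedd4l rose by 0.87 ± 0.07 (adjusted p = 5.24e-06), Smurf2 rose by 0.19 ± 0.05, and Wwp1 fell by 0.46 ± 0.09. On top of Aβ42 Nedd4l rose by 0.43 ± 0.07 and Wwp1 fell by 0.30 ± 0.09, and the other 9 did not pass, where 11.0% of all genes were called. Nedd4l thus had the same signs as Arrdc3 in these 3 comparisons, while Wwp1 was lower with either agent. Itch, Wwp2, Hecw2, Ndfip1, Ndfip2 and Nedd4 had those signs too, and of these only Ndfip1 passed, with Aβ42 in AE1-329 cultures. The share of all genes with those signs was not counted. Nedd4 gave -0.26 ± 0.35, 0.17 ± 0.35 and 0.09 ± 0.35 and did not pass in this fit, which leaves litter out. Its levels differed widely between litters. In litters 1 to 3 they were 9.10, 9.50 and 8.46 with both agents, against 9.41, 9.76 and 8.69 with AE1-329 alone.

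Among known cargoes and partners 4 of 7 measured genes rose, 1 fell and 2 did not pass with Aβ42 in AE1-329 cultures (median 0.76, against 0.01), where 22.0% of all genes were called. The inflammasome sensor Nlrp3, a reported Txnip partner, rose by 3.50 ± 0.09, the iron transporter Slc11a2 rose by 1.37 ± 0.07, Slc2a1, which encodes GLUT1, rose by 1.27 ± 0.11 (adjusted p = 1.29e-06), and Notch1 rose by 0.76 ± 0.07, while Slc2a4 fell by 0.24 ± 0.07. With AE1-329 alone 2 of 7 rose, namely Notch1 (0.29 ± 0.07) and Slc2a4, the insulin-responsive glucose transporter gene (0.26 ± 0.07), where 10.2% of all genes were called. In cultures given Aβ42 the agonist raised 1 of 7, Notch1 (0.24 ± 0.07, adjusted p = 0.0488), where 11.0% of all genes were called. Slc2a1 gave 0.07 ± 0.11 there (adjusted p = 0.802) and did not pass.

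Of the thioredoxin and peroxiredoxin genes, the redox system that Txnip inhibits, 2 of 9 measured rose and 7 did not pass with Aβ42 in AE1-329 cultures (median -0.01, against 0.01), a share close to the 22.0% of all genes called. Thioredoxin reductase Txnrd1 rose by 1.69 ± 0.07 (adjusted p = 9.70e-10) and Prdx1 rose by 0.32 ± 0.08. Thioredoxin itself, Txn1, gave 0.11 ± 0.05 (adjusted p = 0.117). Prdx2 was the only one to pass with AE1-329 alone (0.28 ± 0.06, adjusted p = 0.0155), where 10.2% of all genes were called. On top of Aβ42 0 of 9 passed limma's test, with 0 at an unadjusted p under 0.05. Of all genes 11.0% were called there and 20.9% had an unadjusted p under 0.05.

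Of 7 transcription factors known to act on alpha-arrestin genes, 3 fell, 2 rose and 2 did not pass with Aβ42 in AE1-329 cultures (median -0.16, against 0.01), where 22.0% of all genes were called. Foxo3 fell by 0.86 ± 0.05 (adjusted p = 7.18e-08), Foxo1 fell by 0.35 ± 0.05, Mlxip, the gene of MondoA, fell by 0.31 ± 0.05, and the glucocorticoid receptor gene Nr3c1 rose by 0.53 ± 0.06. Mlx, the partner of MondoA, rose by 0.23 ± 0.05. With AE1-329 alone only Foxo3 (0.30 ± 0.05) and Foxo1 (0.16 ± 0.05, adjusted p = 0.0495) passed, both higher, where 10.2% of all genes were called. The same 2 factors rose on top of Aβ42, Foxo3 by 0.32 ± 0.05 and Foxo1 by 0.27 ± 0.05, and the other 5 did not pass, where 11.0% of all genes were called.

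Of 9 known FoxO target genes other than Txnip, 6 fell, 1 rose and 2 did not pass with Aβ42 in AE1-329 cultures (median -0.48, against 0.01), where 9.77% of all genes rose and 12.2% fell. The stress-induced sestrin gene Sesn1 fell by 1.83 ± 0.09, the cyclin gene Ccng2 fell by 1.02 ± 0.11, Trp53inp1, a p53-inducible gene, fell by 0.97 ± 0.06, the cell-cycle inhibitor gene Cdkn1b fell by 0.48 ± 0.07, and the repressor gene Bcl6 rose by 0.64 ± 0.06. With AE1-329 alone 4 of 9 rose and 5 did not pass (median 0.24, against -0.01), namely Trp53inp1 (0.49 ± 0.06), Sesn3 (0.51 ± 0.11), Cdkn1b (0.34 ± 0.07) and Ccng2 (0.43 ± 0.11), where 4.71% of all genes rose. On top of Aβ42 4 of 9 rose and 1 fell (median 0.34, against -0.02), where 5.99% of all genes rose and 5.04% fell. Trp53inp1 rose by 0.97 ± 0.06, Ccng2 by 0.92 ± 0.11 and Cdkn1b by 0.65 ± 0.07, whereas Sesn1 fell by 0.94 ± 0.09. Ccng2, Cdkn1b and Trp53inp1 passed with the signs of Arrdc3 in all 3 comparisons. Sesn3 had those signs as well but did not pass on top of Aβ42. The share of all genes with those signs was not counted. Txnip, itself a known FoxO target, was lower in the first, did not pass in the second and was lower in the third.

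Of 8 glucocorticoid-responsive genes 3 fell, 2 rose and 3 did not pass with Aβ42 in AE1-329 cultures (median -0.06, against 0.01), where 22.0% of all genes were called. Tsc22d3, which encodes the leucine zipper protein GILZ, fell by 1.11 ± 0.08, Fkbp5 fell by 0.39 ± 0.07, the phosphatase gene Dusp1 rose by 0.55 ± 0.10, and the mRNA decay factor gene Zfp36 rose by 0.46 ± 0.07. With AE1-329 alone 3 of 8 rose, namely Tsc22d3 (0.49 ± 0.08), Dusp1 (0.58 ± 0.10) and Zfp36 (0.31 ± 0.07), where 10.2% of all genes were called. In cultures given Aβ42 the agonist raised Dusp1 (0.63 ± 0.10) and the kinase gene Sgk1 (0.26 ± 0.07), Fkbp5 fell by 0.33 ± 0.07, and 5 did not pass, where 11.0% of all genes were called.

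Of 5 other arrestins, which include the alpha-arrestin Arrdc5, the beta-arrestins Arrb1 and Arrb2 and the visual arrestins, Arrb2 rose by 0.39 ± 0.06 with Aβ42 in AE1-329 cultures (adjusted p = 0.000444) and 4 did not pass, where 22.0% of all genes were called. Arrb1 fell by 0.23 ± 0.05 with AE1-329 on top of Aβ42 (adjusted p = 0.010), where 11.0% of all genes were called. With AE1-329 alone 0 of 5 passed limma's test, with 1 at an unadjusted p under 0.05. Of all genes 10.2% were called there and 21.1% had an unadjusted p under 0.05. Arrdc5 gave 0.05 ± 0.07, -0.04 ± 0.07 and -0.14 ± 0.07 in the 3 comparisons and passed in none (adjusted p = 0.677, 0.853 and 0.273). Of the 4 ESCRT genes that Arrdc1 budding depends on, Vps4b rose by 0.17 ± 0.05 with Aβ42 in AE1-329 cultures (adjusted p = 0.0176), where 22.0% of all genes were called. In both comparisons of AE1-329 0 of 4 passed limma's test, with 0 at an unadjusted p under 0.05. The shares of all genes were 10.2% and 21.1% with AE1-329 alone, and 11.0% and 20.9% on top of Aβ42.

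**Figure D5:**
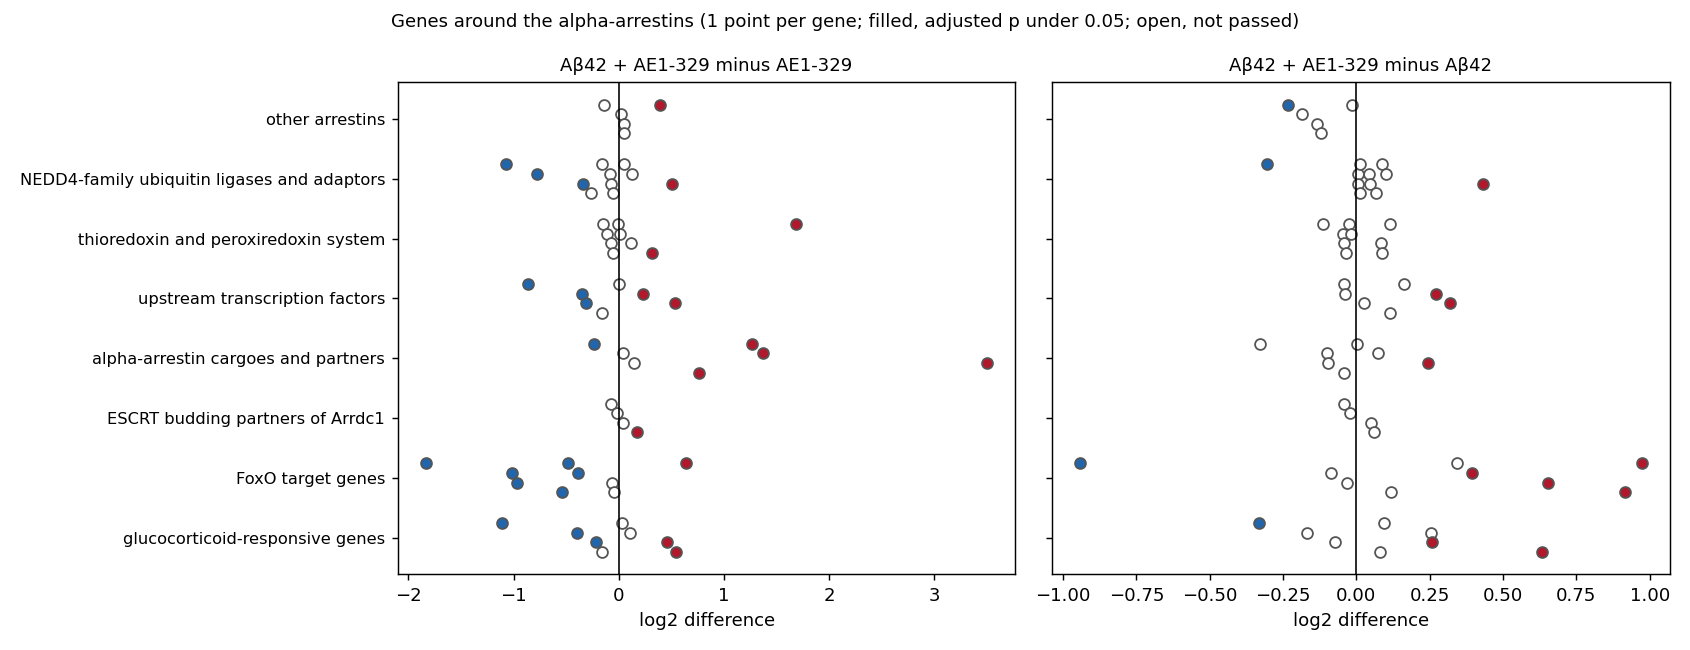
Log2 differences of the genes in 8 lists around the alpha-arrestins, for Aβ42 in AE1-329 cultures (left) and for AE1-329 on top of Aβ42 (right); each point is a gene, filled where the adjusted p was under 0.05. Of the 9 FoxO targets, 6 passed lower and 1 higher on the left. On the right 4 passed higher and 1 lower.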

How the data were processed

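Transcripts of 12 microglial cultures were measured on Affymetrix Mouse Gene 1.0 ST arrays. The deposited values are log2 expression values, and per the submitters' processing notes RMA and Partek 6.5 were used, in roles the notes do not state. The genome build is not given in the sources used here. Precision is limited by the number of arrays. Groups and replicate numbers were read from the sample titles, and 0 value columns lacked a sample.

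Of 35556 probe sets 21789 carried 1 symbol in the platform annotation, 1621 several and 12146 none. Symbols of 21698 were matched through the RefSeq table of GRCm38.p6, and the probe set with the highest mean was kept per gene. Group means of all 12 arrays were fitted by lmFit and eBayes (limma 3.58.1, R 4.3.3; two-sided, adjusted p threshold 0.05; 8 residual and 4.54 prior degrees of freedom), and the procedure was tested on simulated data. Genes named are the 5 members, up to 4 passing genes per list and comparison with the smallest p, and the 5 most correlated genes per member with a standard deviation of at least 0.3, without predicted, olfactory receptor and microRNA genes. Values of Arrdc5, Txn1 and Nedd4, and of single cell-type markers, were added after they were seen. So were those of Slc2a4, Cdkn1b and Mlx for Aβ42 in AE1-329 cultures and of Slc2a1 for AE1-329 on top of Aβ42. Genes named for sharing the signs of Arrdc3 were also picked after the values were seen. The members and lists were chosen with earlier results of these data known. Sequences are from RefSeq.

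The submitters' design text ties replicates to 3 litters, so equal replicate numbers were read as 1 litter. Deviations of such arrays from their group means had a mean correlation of 0.33 over 18 pairs (0.0044 to 0.54, 17 above 0.1), across genes, which are not independent replicates. For all 12 arrays the best correlate in another group had the same replicate number. The calls given for lists and markers are from the fit without litter. Alternatives were the replicate block, each array left out, brighter genes only (above the median), averaging a gene's probe sets, quantile normalization again, a trended robust prior, only the compared groups, and all probe sets.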

Additional observations from a re-analysis of the deposited data

Results flagged for a closer look

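In the fit without litter none of the 4 tested alpha-arrestins was among the genes whose Aβ42 difference with AE1-329 differed from that without it, whereas with litter as a block Txnip passed (adjusted p = 0.0251) and Arrdc4 did not (0.0507). In the fit without litter 6 of the genes in the lists around them passed the limma interaction, where 1.95% of all genes passed. They were 2 higher and 1 lower of 9 FoxO targets, 2 lower of 8 glucocorticoid-responsive genes and 1 lower of 11 NEDD4-family genes. No gene of the other lists passed, and all lists were chosen with earlier results of these data known. The FoxO target Sesn1 had an interaction of -0.69 ± 0.12 (adjusted p = 0.00983), Trp53inp1 of 0.49 ± 0.08 (adjusted p = 0.00506) and Irs2 of 0.46 ± 0.09 (adjusted p = 0.0193). The glucocorticoid-responsive genes Fkbp5 and Zfp36 had -0.49 ± 0.09 (adjusted p = 0.0183) and -0.48 ± 0.10 (adjusted p = 0.0290). The ubiquitin ligase gene Nedd4l had -0.44 ± 0.10 (adjusted p = 0.0441).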

How the results depend on the processing

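Of 319 recomputed member values with a test 293 kept their sign and their side of the threshold, 19 lost and 4 gained a call, and 3 changed sign without a call in either setting. Arrdc4 kept its call for Aβ42 in AE1-329 cultures, for AE1-329 alone and for AE1-329 on top of Aβ42 under all 19 alternatives each, and so did Arrdc3 (-2.45 to -2.33) and Txnip (-0.41 to -0.32) for Aβ42 in AE1-329 cultures. Leaving out 1 array gave Arrdc2 between -0.24 and -0.15 for Aβ42 in AE1-329 cultures, and Arrdc1 between 0.20 and 0.27 and Txnip between -0.29 and -0.21 for AE1-329 on top of Aβ42. Over all probe sets Arrdc1 (0.23) and Txnip (-0.26) lost that call, and quantile normalization again ended the Arrdc2 call (-0.16). The Txnip interaction ranged from -0.46 to -0.33 with 1 array left out and passed under the replicate block (-0.39 with an adjusted p of 0.0251) and also (-0.39) among genes above the median level, as did that of Arrdc4 (0.31). The replicate block changed no other member call. The count of genes with an interaction was 389, 677 with the replicate block, and 246 to 557 with 1 array left out, lowest without replicate 2 (246) or 3 (254) of Aβ42 alone or replicate 2 of AE1-329 alone (254). AE1-329 alone called 2026 genes, and 970 when only its 6 arrays were fitted. Of the list counts 614 stayed within 1.5 times and 98 moved further, most of them counts of few genes. The cause of these changes was not tested.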
